A study of Mus musculus with 80 samples.

Results

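Catalytically dead METTL3 was compared with wild-type METTL3 as the only METTL3 left in mouse embryonic stem cells (mES cells), in cells not given doxycycline (Dox), so that Xist was not induced. The comparison rests on 8 of the 80 libraries of the series, chosen by their labels: 2 untreated and 2 dTAG libraries of the line D395A_9F, and 2 untreated and 2 dTAG libraries of the line WT_1A. Chromatin-associated RNA was sequenced (ChrRNA-seq), which holds mostly unspliced RNA still bound to chromatin, and the 13004 autosomal genes that passed a filter on low values are described by function and by length.

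All 4 groups share the same parent. The cells are an interspecific Cast by 129 mES cell line with Dox-inducible Xist on the Cast X chromosome, and its METTL3 clone H5 carries FKBP12 F36V, the degron tag, at the C terminus of endogenous METTL3. GFP-METTL3 without a degron was added at Rosa26 and is driven by its constitutive promoter, as the wild-type protein (WT) or as D395A. Both lines are single clones, so the transgene and the clone cannot be told apart, and both are labelled XiO, meaning that the 129 X was lost. The dTAG libraries come from cells given dTAG-13, the compound that makes tagged METTL3 degrade, for 26 h by the sample titles. A second label field has 2 h instead; the time in the titles is used here. Replicates 1 and 2 were taken as separate batches of the same clone, each split into the untreated and the treated well. This rests on the study's reporting summary, and every change was taken within its replicate pair. The p-values measure how far the changes with treatment varied between these repeats, after level differences between the repeats were removed. They do not cover the spread between clones.

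METTL3 transfers a methyl group to the N6 position of adenosine in RNA (m6A), in a heterodimer with METTL14, which binds RNA but does not catalyse. WTAP, VIRMA, RBM15, ZC3H13 and HAKAI join them into the writer complex. YTHDC1 reads m6A in the nucleus and YTHDF proteins read it in the cytoplasm, where the mark is known for shortening the life of transcripts. The codon that separates the transgenes lies in a coding exon of Mettl3, within the 30 bases at chr14:52297572-52297601 of GRCm38.p6 on the minus strand. It is printed because it is the designed difference between the lines. Capitals mark the 4 codons of the catalytic motif, of which D395A exchanges the first, aspartate, for alanine; the letters are the RefSeq reference and not the transgene.

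Mettl3 codons 392 to 401: gtgatggctGACCCACCTTGGgatattcac

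The 8 libraries held 13936930 to 33069344 reads counted on genes, of which replicate 1 of each group held at most 17609501 and replicate 2 at least 28015419. No library repeated its replicate: a chi-square test of replicate libraries gave 49.1 to 90.5 per gene, far above sampling noise. Genes under 3 kb took 0.728% to 1.06% of reads in 7 libraries and 1.34% in the D395A dTAG replicate 2 library, the highest, whose partner in replicate 1 was the lowest. The mES cell markers fixed for a check were measured in every library with the exception of Sox2, which is listed at 0 throughout. Its span lies inside that of Sox2ot on the same strand, and reads from overlapping genes cannot be assigned in such a count. Summed CPM of the 8 markers was 702 to 783 in WT libraries and 1088 to 1666 in D395A libraries. Of this Esrrb made up 234 to 397 CPM in WT and 502 to 1075 CPM in D395A libraries. Zfp42 and Klf4 were also higher in the D395A line, and ranges of Pou5f1, Nanog, Tdgf1 and Dppa5a overlapped between the lines. Feeder markers summed to 915 to 1740 CPM, of which Fn1 made up 909.9 to 1717 CPM. Lum, Postn and Dcn, defining fibroblast genes and the lowest of the 12 markers, were at most 0.625 CPM. They were at 0 in 6, 4 and 2 of 8 libraries. Twist2, Col1a1, Col3a1 and Acta2 were present in every WT library and lower in the D395A line. Twist2 was at 5.62 to 9.48 CPM in WT and 1.78 to 2.9983 CPM in D395A libraries. Col3a1 was at 2.84 to 3.12 and 0.1155 to 0.714 CPM, and Acta2 at 1.99 to 3.96 and 0.0614 to 0.289 CPM. Ranges of Fn1, Pdgfrb, Prrx1 and Thy1 overlapped between the lines. Xist, measured as a label check, was at 1.22 to 10.1 CPM.

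Mettl3 RNA did not report the depletion, because the degron removes protein, and reads of the GFP-METTL3 cDNA may count towards it. Mettl3 was at 74.6 and 57.4 CPM (counts scaled to 1000000 reads) untreated and at 71.0 and 52.7 CPM with dTAG in the D395A line, and at 68.5 and 62.9 CPM and then 69.1 and 63.1 CPM in the WT line. Values of replicates 1 and 2 are given in that order here and below. The log2 change was -0.10 with D395A (SE 0.0617, adjusted p 0.246) and 0.01 with WT (adjusted p 0.999). The groups overlap in both lines. With libraries scaled by the median ratio over autosomal genes the D395A value was -0.22 (adjusted p 0.0129).

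dTAG changed many autosomal genes when the remaining METTL3 was D395A, and no gene passed the test when it was WT. Of 13004 autosomal genes 3427 were higher (26.4%) and 1077 lower (8.28%) with D395A, by limma on log2(CPM + 1) with the replicate as a block and a Benjamini-Hochberg adjusted p under 0.05. The same fit called 0 higher (0%) and 0 lower (0%) with WT, where 496 genes had an unadjusted p under 0.05 and edgeR also called 0. The lowest adjusted p of the WT line was 0.435, for Trp53inp1, a p53 target. The sign was the same in both D395A pairs for 3426 of the 3427 higher and 1077 of the 1077 lower genes. The call rests on the mean of these 2 pairs, so the calling rule itself favours a shared sign. Of the higher genes 224 and of the lower genes 22 passed 2-fold. The log2 scale of CPM + 1 understates the change of genes with low CPM.

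The balance of higher and lower calls depends on the scale. The median autosomal gene moved by 0.12 (log2) with D395A and by 0.02 with WT, and list medians below are to be read against that shift. With median-ratio scaling, which sets it near 0, 2106 genes were higher (16.2%) and 2254 lower (17.3%) with D395A, and 0 of 13004 in either direction with WT. The count of each gene list below is read against these shares over all autosomal genes, 26.4% higher and 8.28% lower on the CPM scale and 16.2% and 17.3% with median-ratio scaling. On both scales the same 2106 genes were higher and the same 1077 lower. Without the replicate block 46 genes were higher and 8 lower with D395A and 0 with WT. Fitted to the 8 libraries without Dox alone, 2816 genes were higher and 848 lower with D395A, and 0 with WT.

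**Figure D1:**
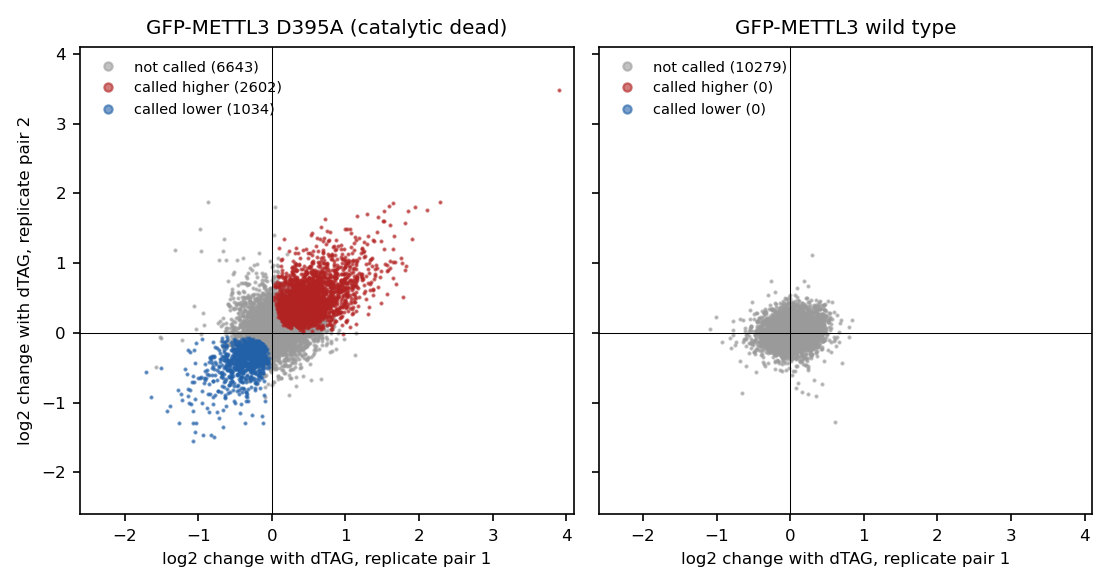
Log2 change with dTAG in replicate pair 1 (horizontal) and pair 2 (vertical) of each autosomal gene averaging 5 CPM or more, in the D395A line (left) and the WT line (right); red points were called higher and blue points lower by limma. The D395A points spread along the diagonal (r = 0.64 over 10279 genes) while the WT points sit in a round cloud near 0 (r = 0.17).

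Among 10279 autosomal genes averaging 5 CPM or more, 90% changed by less than 0.56 (log2, either direction) with D395A and by less than 0.18 with WT. The changes of the 2 pairs correlated across these genes at r = 0.64 (Spearman 0.59) with D395A and at 0.17 (Spearman 0.16) with WT. The pairs share no library, and genes are not independent replicates.

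The difference itself was tested in the same fit, as the D395A change minus the WT change. It was higher for 1380 genes (10.6%) and lower for 482 genes (3.71%) of 13004. With median-ratio scaling these were 858 (6.60%) and 979 (7.53%), and the counts fell to 425 and 138 without WT replicate 1.

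Car10, an acatalytic member of the carbonic anhydrase family expressed in brain, rose more than any other gene of those passing the naming rule. It was at 6.07 and 4.77 CPM untreated and at 104 and 63.3 CPM with dTAG in the D395A line, against 14.9 and 8.98 CPM and then 14.8 and 9.12 CPM in the WT line. The D395A dTAG libraries lie above all others and the WT groups overlap. The log2 change was 3.69 (SE 0.159, adjusted p 1.26e-07), a fold of 12.9, and exceeded that of WT by 3.68 (adjusted p 9.06e-06). The gene spans 502462 bases of chromosome 11 (93099290 to 93601751, mm10).

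Lsamp, a cell adhesion protein of the neuronal surface, went from 5.49 and 5.60 CPM to 30.7 and 23.3 CPM with D395A and was at 8.73 to 18.4 CPM in the 4 WT libraries. Its change was 2.08 (SE 0.159, adjusted p 7.16e-06). Megf11, a transmembrane protein of retinal mosaic spacing, went from 33.0 and 30.1 CPM to 146 and 105 CPM, with 30.7 to 47.6 CPM in the WT libraries. Its change was 1.94 (SE 0.0983, adjusted p 4.68e-07). In both genes the D395A dTAG libraries were the 2 highest of 8.

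Several genes of the nervous system with long spans followed. Sdk1, an adhesion molecule of synaptic layers, rose by 1.69 (84.3 and 81.9 to 299 and 246 CPM), Cntnap4, a neurexin relative, by 1.63 (12.5 and 11.8 to 37.6 and 41.9 CPM), and Grm5, a glutamate receptor, by 1.56 (5.72 and 3.26 to 18.2 and 11.99 CPM). Nav3 rose by 1.87 and Dok6, an adaptor of receptor tyrosine kinases, by 1.62. Adamts1 stood apart by its short span of 9288 bases. This secreted protease of the extracellular matrix went from 5.89 and 9.65 to 19.8 and 36.7 CPM (1.71, SE 0.134, adjusted p 7.71e-06), and was at 4.20 to 14.2 CPM in the WT libraries. Spink10 (1.75), Wdr93 (1.57) and an entry named Mir669m-1 (1.80) completed the 12 highest. That entry is listed with a span of 586235 bases, so its reads cannot be assigned to a microRNA hairpin.

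**Figure D2:**
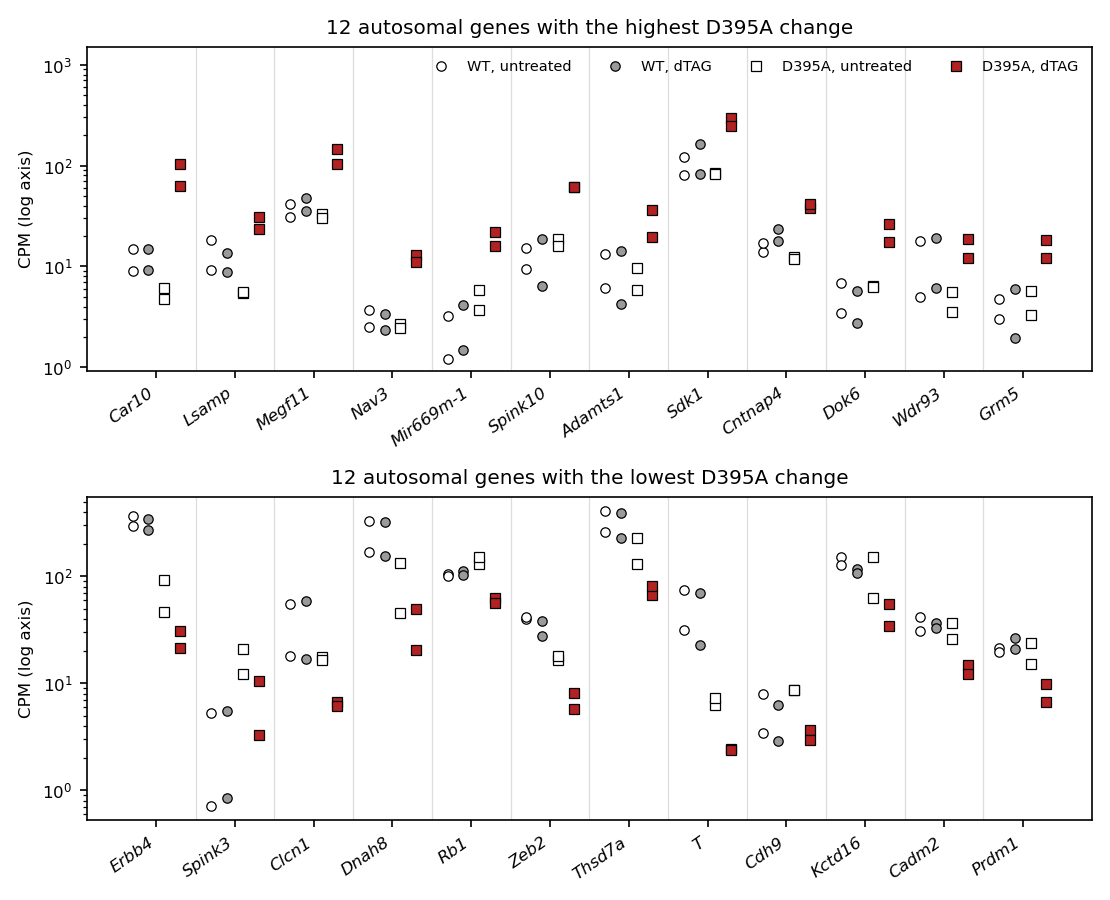
CPM (log axis) of the 12 autosomal genes with the highest (top) and lowest (bottom) D395A change in each of the 8 libraries; circles are WT and squares D395A, open symbols untreated and filled symbols dTAG, and each symbol is a library. Filled squares stand above both open squares in each gene of the top row and below both in each gene of the bottom row other than Dnah8, whose D395A groups overlap.

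Erbb4, a receptor of neuregulins, fell most. It was at 46.3 and 92.1 CPM untreated and 21.6 and 30.7 CPM with dTAG with D395A, against 367 and 298 CPM and then 347 and 273 CPM with WT. The D395A groups do not overlap, and the WT line stood above the D395A line before treatment. Erbb4 changed by -1.31 (SE 0.133, adjusted p 3.61e-05) and differed from the WT change by -1.21 (adjusted p 0.00223).

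Rb1, the retinoblastoma tumour suppressor that restrains entry into S phase, was at 129.6 and 153 CPM untreated and at 62.6 and 56.6 CPM with dTAG with D395A. In the 4 WT libraries it was at 102 to 112 CPM. The D395A untreated libraries were the 2 highest and the D395A dTAG libraries the 2 lowest of 8. The change was -1.23 (SE 0.105, adjusted p 1.42e-05), and the difference from WT was -1.29 (adjusted p 7.10e-04).

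The 12 lowest genes also held 3 transcription factors. Zeb2, a repressor active in epithelial to mesenchymal transition, went from 16.6 and 18.0 to 5.71 and 8.17 CPM (-1.22, SE 0.130). T, or Brachyury, the mesoderm transcription factor, went from 6.24 and 7.28 to 2.46 and 2.39 CPM (-1.18, SE 0.160), and Prdm1, which marks the germ cell lineage, from 24.1 and 15.0 to 6.69 and 9.89 CPM (-1.13, SE 0.255). T was 23.1 to 75.4 CPM in the WT libraries, well above both D395A groups, and Zeb2 27.7 to 41.9 CPM. Adjusted p-values were 4.79e-05 for Zeb2, 2.14e-04 for T and 0.00489 for Prdm1.

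The other lowest genes were of mixed function. Clcn1, a chloride channel of muscle, fell by 1.28 on the log2 scale (17.5 and 16.5 to 6.69 and 6.18 CPM), Dnah8, a dynein heavy chain of sperm flagella, by 1.28 (134 and 45.6 to 49.5 and 20.3 CPM, with overlapping groups) and Thsd7a by 1.21 (129.6 and 228 to 67.0 and 81.8 CPM). Cadm2 (-1.14), Cdh9 (-1.16), both adhesion proteins, Kctd16 (-1.15) and Spink3 (-1.28) also fell. The difference from WT did not pass for Cdh9 (adjusted p 0.126) and Kctd16 (adjusted p 0.163). It passed for Cnpy1 (-1.29), Tarm1 (-1.27), the calcium-activated chloride channel relative Ano3 (-1.23) and Crebrf, a negative regulator of the unfolded protein response (-1.22).

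Within the writer complex 3 of 8 members were higher and 1 lower with D395A, a share of 37.5% against 26.4% and of 12.5% against 8.28% over all autosomal genes, and 1 and 2 with median-ratio scaling. Wtap, the adaptor that brings METTL3 to nuclear speckles, was the one that fell. It was at 189 and 179 CPM untreated and 133 and 138 CPM with dTAG with D395A, and at 147 to 191 CPM in WT libraries, where the groups overlap. The change was -0.44 (SE 0.0654, adjusted p 3.86e-04), the difference from WT -0.50 (adjusted p 0.00483). Cbll1, which encodes HAKAI, rose by 0.40, Rbm15 by 0.28 and the gene of VIRMA, listed as 1110037F02Rik, by 0.23. The last 2 did not pass with median-ratio scaling (adjusted p 0.0891 and 0.321). Mettl14 was at 25.0 and 27.7 CPM and then 30.6 and 23.7 CPM (0.03, adjusted p 0.861), with opposite signs in the pairs.

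Of 14 readers 2 were higher (14.3% against 26.4%) and 5 lower (35.7% against 8.28%). With median-ratio scaling 0 were higher and 6 lower (42.9% against 17.3%). Igf2bp3, which stabilises bound mRNAs, had the largest change, from 439 and 478 to 368 and 342 CPM (-0.37, SE 0.0581, adjusted p 5.68e-04). Ythdc1 went from 288 and 363 to 277 and 296 CPM (-0.17, adjusted p 0.0403) with overlapping groups, while its difference from WT did not pass (-0.17, adjusted p 0.212). Ythdf2, the reader that recruits deadenylases, rose by 0.26 on the CPM scale only. Among 8 other RNA methyltransferases and m6A erasers 0 rose (0% against 26.4%) and 1 fell (12.5% against 8.28%), Pcif1, the methyltransferase of cap-adjacent adenosine (-0.38).

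SR proteins, which guide splice site choice, and the CLK kinases that phosphorylate them included more lower than higher genes. Of 22 tested, 10 were lower (45.5% against 8.28%) and 2 higher, and 17 lower (77.3% against 17.3%) and 2 higher with median-ratio scaling. The list median was -0.12 and -0.17 in the 2 pairs against 0.10 and 0.13 over all autosomal genes. Tra2a, a splicing activator, went from 317 and 235 to 250.4 and 154 CPM (-0.48, SE 0.0822, adjusted p 9.98e-04). Srsf1, Srsf3, Srsf4, Srsf5, Srsf6 and Srsf7 fell by 0.24 to 0.29, and Clk1, a kinase of SR proteins, by 0.32. The 2 that rose, Son (0.33) and Srrm2 (0.36), encode large scaffolds of nuclear speckles. The WT median was -0.02.

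RNA decay and termination factors were called higher in a smaller share than all autosomal genes, and the share called lower depended on the scale. Of 18 members of NEXT, PAXT and the nuclear exosome, which degrade nuclear RNA, 2 were higher (11.1% against 26.4%), Exosc6 (0.54) and Dis3 (0.25), and 0 lower (0% against 8.28%). With median-ratio scaling 1 was higher and 2 lower (11.1% against 17.3%), and Dis3 was not called (0.12, adjusted p 0.256). Of 26 mRNA decay factors 2 were higher (7.69%) and 3 lower (11.5% against 8.28%), with the deadenylases Cnot6l at 0.43 and Cnot6 at -0.30. With median-ratio scaling 1 was higher and 12 lower (46.2% against 17.3%). Of 34 termination and 3' end factors 3 were higher (8.82%) and 6 lower (17.6% against 8.28%), and 2 and 11 (32.4% against 17.3%) with median-ratio scaling. Cpsf2 was at 0.46 and Cpsf6 at -0.38, both parts of the 3' end cleavage machinery.

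Imprinted lncRNAs moved in both directions. The transcripts of the Dlk1-Dio3 domain on chromosome 12 fell: Meg3 from 3439 and 2661 to 2573 and 1308 CPM (-0.72, SE 0.140, adjusted p 0.00208), Rian from 5505 and 6486 to 3732 and 4409.6 CPM (-0.56, SE 0.0938, adjusted p 8.31e-04), and Mirg from 913 and 1024 to 577 and 803 CPM (-0.51). In all 3 the D395A groups do not overlap, and all 3 were lower in the WT line before treatment (1364 and 950.5 CPM for Meg3). The difference from WT passed for Rian (-0.52, adjusted p 0.0225), and not for Meg3 (-0.49, adjusted p 0.120) or Mirg (-0.46, adjusted p 0.0934). Kcnq1ot1, the antisense RNA that silences its imprinted cluster, went from 2331 and 2287 to 3128 and 2608 CPM (0.31, SE 0.0610, adjusted p 0.00236; 0.18 and adjusted p 0.0528 with median-ratio scaling). It was 1755 to 2156 CPM in the WT libraries, and differed from WT by 0.39 (adjusted p 0.0114), or by 0.29 with median-ratio scaling, which did not pass (adjusted p 0.0563). Malat1 changed by -0.15 (adjusted p 0.344) and Neat1 by -0.10 (adjusted p 0.711), both with opposite signs in the pairs. In all, 2 of 14 nuclear and imprinted lncRNAs were higher (14.3% against 26.4%) and 5 lower (35.7% against 8.28%), and 0 and 6 (42.9% against 17.3%) with median-ratio scaling.

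Tor1aip2, which encodes a protein of the nuclear envelope, rose by 0.73 (SE 0.0566, adjusted p 7.71e-06). It was at 170.2 and 143 CPM untreated and 269 and 249 CPM with dTAG with D395A, and at 169.8 to 186 CPM in the WT libraries. The D395A dTAG libraries were the 2 highest of 8.

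Pluripotency genes that were called fell. Of 27 core and naive members 0 were higher and 10 lower (37.0% against 8.28%), and 0 and 13 (48.1% against 17.3%) with median-ratio scaling. In bulk RNA fewer cells of a kind and less RNA per cell cannot be told apart. Lifr, the receptor of LIF, went from 290.1 and 257 to 178 and 191 CPM (-0.56, SE 0.0780, adjusted p 2.32e-04) and its effector Stat3 from 153 and 118 to 112 and 81.8 CPM (-0.48, adjusted p 6.05e-05). Nr5a2, a nuclear receptor that activates Pou5f1, went from 704 and 489 to 389 and 365 CPM (-0.64), and Tet2, a 5-methylcytosine oxidase, from 329 and 178 to 191 and 142 CPM (-0.56). In each of these 4 genes dTAG was lower in both pairs, and the difference from WT passed for Lifr (-0.56, adjusted p 0.00684) and Stat3 (-0.47, adjusted p 0.00267). The list median was -0.46 in pair 1 and -0.01 in pair 2. Pou5f1 (0.06, adjusted p 0.821) and Nanog (-0.01, adjusted p 0.966) were not called.

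Of 15 measured regulators of the primed state and of lineages 4 were higher (26.7%, close to the 26.4% of all autosomal genes) and 2 lower (13.3% against 8.28%), the same counts as with median-ratio scaling. Pou3f1, a POU factor of the epiblast, rose by 0.87 from 0.751 and 0.652 to 1.72 and 2.57 CPM, and Foxd3, needed for exit from naive pluripotency, by 0.70. The neural progenitor genes Sox11 (0.58) and Nes (0.57) were the others. T and Lef1, a WNT effector (-0.71, 214 and 275 to 136 and 161 CPM), fell. The filter was passed by 15 of 23 primed and lineage genes, 1 of 25 genes of the 2-cell-like state and 1 of 41 Hox genes, and the single members of the last 2 lists were not called.

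DNA methylation genes moved in both directions. Dnmt3a, a de novo methyltransferase, went from 53.9 and 45.1 to 98.3 and 70.8 CPM (0.75, SE 0.106, adjusted p 2.82e-04), with a difference from WT of 0.82 (adjusted p 0.00481), and Tet3 rose by 0.58. Tet2 (-0.56), Hells (-0.34), a remodeller that assists methylation, Dnmt1 (-0.26), the maintenance enzyme, and Uhrf2 (-0.24) fell. Of 15 tested, 2 were higher (13.3% against 26.4%) and 4 lower (26.7% against 8.28%), and 2 and 9 (60% against 17.3%) with median-ratio scaling.

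Among chromatin repressors, silencers of retroelements had 5 higher (26.3% against 26.4%) and 4 lower (21.1% against 8.28%) of 19, and 3 and 10 (52.6% against 17.3%) by the median ratio. The changes were led by Setdb1, the H3K9 methyltransferase (0.44, 145 and 165 to 206 and 213 CPM), and its partner Atf7ip in the opposite direction (-0.43, 206 and 149 to 148 and 114 CPM). Polycomb subunits had 4 higher (18.2% against 26.4%) and 6 lower (27.3% against 8.28%) of 22, and 2 and 10 (45.5% against 17.3%) by the median ratio. Bmi1 (0.77), Cbx2 (0.62), Pcgf5 and Pcgf3 of PRC1 rose. Phf19 (-0.46), Mtf2, Suz12, Ezh2 and Rbbp4 of PRC2 fell, as did Cbx7 of PRC1 (-0.45).

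Genes named Zfp encode zinc finger proteins, many of them DNA-binding repressors. Of 321 tested 128 were higher (39.9% against 26.4%) and 14 lower (4.36% against 8.28%), and 88 and 27 with median-ratio scaling (27.4% and 8.41% against 16.2% and 17.3%). The list median was 0.22 and 0.26 in the 2 pairs, and 0.05 in the WT line. Zfp963 went from 3.58 and 4.57 to 13.3 and 10.3 CPM (1.33, adjusted p 6.05e-05), Zfp759 from 12.2 and 15.3 to 23.1 and 40.0 CPM (1.10) and Zfp607 from 9.36 and 8.17 to 17.7 and 19.8 CPM (1.02). Members with near-identical copies lose the reads they share, since only unique alignments were kept. The other list of transcription factors, Klf, Sox and Fox genes, had 11 higher (29.7% against 26.4%) and 6 lower (16.2% against 8.28%) of 37, and 6 and 7 by the median ratio. Sox4 rose by 0.93 (10.5 and 12.5 to 21.5 and 24.1 CPM) while Klf12 fell by 0.75 (435 and 414 to 248 and 255 CPM), and in both the D395A groups do not overlap.

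Of 23 p53 targets 1 was higher (4.35% against 26.4%) and 6 lower (26.1% against 8.28%), and 0 and 10 (43.5% against 17.3%) with median-ratio scaling. Mdm2, the ubiquitin ligase of p53, went from 243 and 358 to 183 and 229.8 CPM with D395A (-0.53) and from 157 and 274 to 181 and 317 CPM with WT (0.21, adjusted p 0.999). Its difference was -0.73 (adjusted p 0.00258). Trp53inp1 changed by -0.36 with D395A and by 0.42 with WT (adjusted p 0.435), with a difference of -0.78 (adjusted p 8.48e-04). The list median was -0.18 with D395A and 0.16 with WT, against 0.12 and 0.02 over all autosomal genes. In the other lists of signalling and stress genes the share called higher was below the 26.4% of all autosomal genes. It lay near that share for immediate early and heat shock genes. Immediate early genes had 5 higher (21.7%) and 1 lower (4.35%) of 23, and 2 and 1 by the median ratio. Feedback targets of FGF, BMP, WNT and TGF-beta had 4 higher (16.7%) and 1 lower (4.17%) of 24, and 2 and 2 by the median ratio, with Smad6 at 0.78 and Skil at 0.55. The integrated stress response had 3 higher and 3 lower (11.5% each) of 26, and 2 and 6 by the median ratio. Heat shock genes had 3 higher (23.1%) and 0 lower (0%) of 13, and 1 and 1 by the median ratio.

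Cholesterol synthesis had 10 higher (47.6% against 26.4%) and 0 lower (0% against 8.28%) of 21, and 6 (28.6% against 16.2%) and 1 by the median ratio. Among the higher was Dhcr7, the last step of the pathway (log2 change 0.59, 16.9 and 11.3 to 25.7 and 17.8 CPM). Glycolysis had 8 higher (40.0% against 26.4%) and 1 lower (5.00% against 8.28%) of 20, and 4 (20.0% against 16.2%) and 1 by the median ratio. Hk1, hexokinase, rose by 1.20 from 9.01 and 5.12 to 24.5 and 11.7 CPM (adjusted p 4.00e-05) and differed from WT by 1.09 (adjusted p 0.00267). The median of the glycolysis list was -0.02 in pair 1 and 0.39 in pair 2, in which the share of reads on genes under 3 kb also rose. Cell cycle genes had 5 higher and 5 lower of 35 (14.3% each, against 26.4% and 8.28%), and 3 and 10 by the median ratio, with Ccnd2, cyclin D2, at 0.93 and Rb1 at -1.23.

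**Figure D3:**
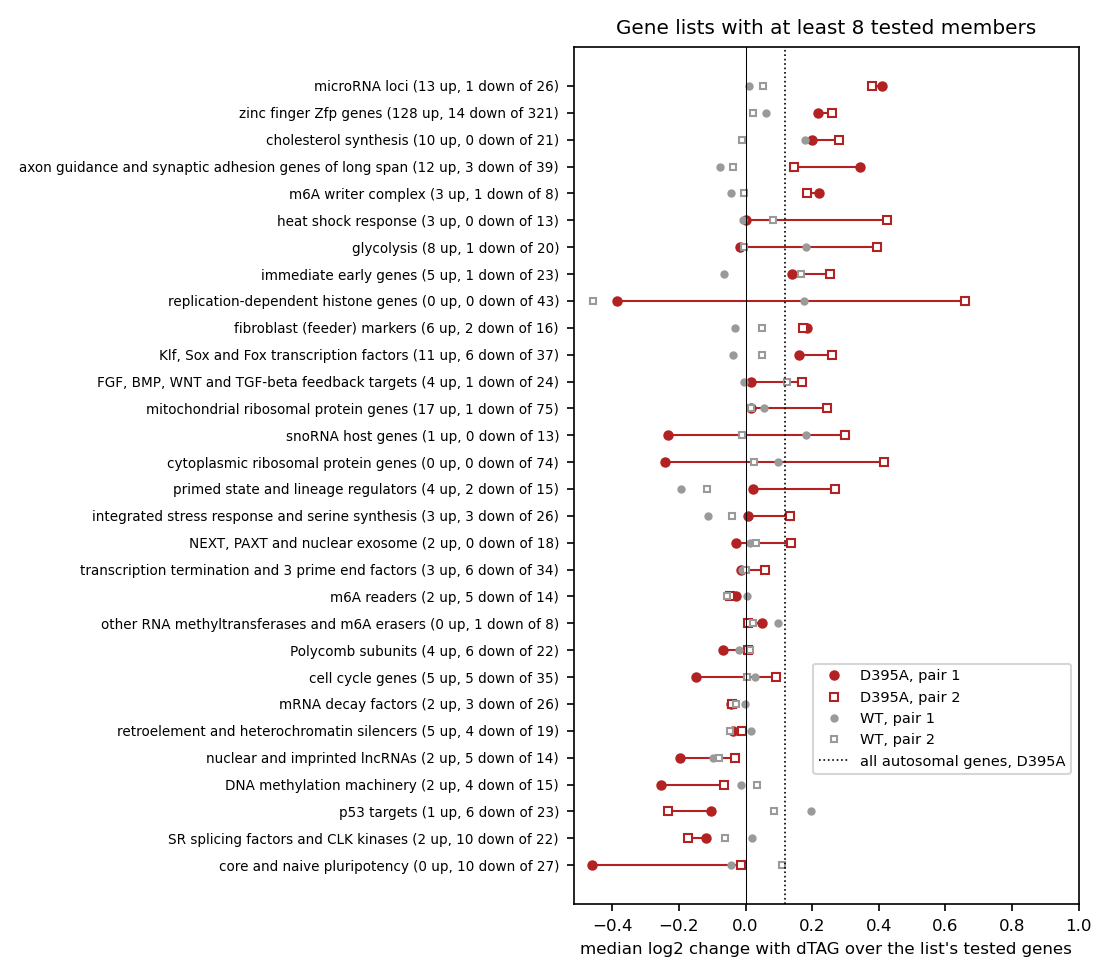
Median log2 change with dTAG over the tested members of each gene list with at least 8 of them, in replicate pairs 1 and 2 of the D395A line (red, joined by a line) and of the WT line (grey); the dotted line marks the D395A median of all autosomal genes, 0.12. The pairs lie close for Zfp genes and SR factors, and far apart, on either side of 0, for histone and cytoplasmic ribosomal protein genes.

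The medians of histone and cytoplasmic ribosomal protein genes had opposite signs in the 2 D395A pairs. Of 43 replication-dependent histone genes 0 were called in limma, and their median was -0.39 in pair 1 and 0.66 in pair 2 of D395A. Hist1h1a went from 33.3 to 26.4 CPM in pair 1 and from 40.4 to 66.6 CPM in pair 2. Of 74 cytoplasmic ribosomal protein genes 0 were called (medians -0.24 and 0.41), and 1 was lower with median-ratio scaling. Mitochondrial ribosomal protein genes had 17 higher (22.7% against 26.4%) and 1 lower (1.33% against 8.28%) of 75, and 5 and 3 by the median ratio, with medians of 0.02 and 0.25 in the pairs and Mrpl43 at 0.95. Of 13 snoRNA host genes 1 was higher, Snhg18, and of 3 measured short structured RNAs 0 were called. The share of reads on genes under 3 kb went from 0.810% to 0.728% in pair 1 and from 0.907% to 1.34% in pair 2, and its part in these values was not tested. No snoRNA gene and no clustered protocadherin passed the filter.

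Long genes for axon guidance and synaptic adhesion had 12 higher and 3 lower of 39, shares of 30.8% against 26.4% and 7.69% against 8.28%, and 9 and 3 with median-ratio scaling. Besides Lsamp and Sdk1, Grid1, a glutamate receptor relative, rose by 1.35 (43.0 and 34.5 to 113 and 88.3 CPM, adjusted p 6.72e-06) and Nrxn3, a presynaptic adhesion protein, by 1.20 (1.50 and 3.30 to 7.06 and 5.997 CPM). The list median was 0.34 and 0.14 with D395A, and -0.05 with WT. Entries named as microRNAs had 13 higher and 1 lower of 26 tested of 64 listed (50.0% against 26.4%), 11 and 1 with median-ratio scaling. The 4 with the largest change, Mir669m-1, Mir6989, Mir466p and Mir466f-3, are listed with spans of 349771 to 586235 bases, far longer than a hairpin.

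Fibroblast genes, listed for the feeder cells, had 6 higher (37.5% against 26.4%) and 2 lower (12.5% against 8.28%) of 16 tested members of 26, and 5 and 2 by the median ratio. Sparc rose by 0.77 (17.7 and 24.5 to 31.7 and 41.6 CPM) and Col5a1 by 0.74 (15.3 and 11.1 to 27.1 and 18.5 CPM), while Vim fell by 0.88 (13.2 and 25.4 to 5.83 and 15.2 CPM). Col1a1, a defining fibroblast collagen, was at 0.231 to 0.750 CPM in the D395A libraries and 4.43 to 5.00 CPM in the WT libraries, and was not called with D395A (adjusted p 0.422). Col3a1, also below 1 CPM in the D395A line, went from 0.1155 and 0.137 to 0.491 and 0.714 CPM (0.51, adjusted p 0.0211). The part of feeder cells in the changes of the D395A line was not tested.

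Longer genes were called more often, in both directions. Reads were counted over whole spans, introns included. The filter on low values was passed by 558 of 3349 autosomal genes under 3 kb and by 461 of 491 over 300 kb. The part of read number in the shares called was not tested. The share called higher with D395A was 13.98% of 558 genes under 3 kb, 21.4% of 2370 genes of 3 to 10 kb, 27.1% of 4321 of 10 to 30 kb, 28.5% of 3814 of 30 to 100 kb, 28.8% of 1480 of 100 to 300 kb and 34.3% of 461 genes over 300 kb. The share called lower rose over the same classes from 1.61% to 15.2% at 100 to 300 kb, with 13.9% over 300 kb. The median change of genes over 100 kb minus that of genes under 10 kb was 0.12 in pair 1 and -0.23 in pair 2 of D395A, and -0.09 and -0.03 with WT. The sign turned between the D395A pairs, together with the share of reads on genes under 3 kb.

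**Figure D4:**
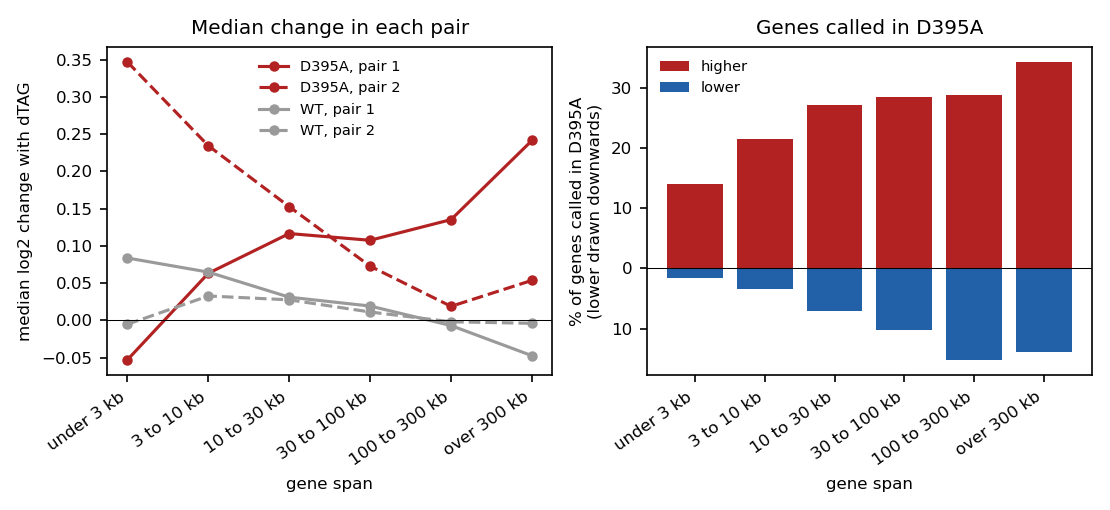
Left, median log2 change with dTAG of autosomal genes in 6 classes of gene span, in each replicate pair of the D395A (red) and WT (grey) lines; right, percent of each class called higher (upwards) and lower (downwards) with D395A. The D395A pairs cross, from -0.05 and 0.35 under 3 kb to 0.24 and 0.05 over 300 kb, while the WT pairs stay within 0.09 of 0.

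In each class the 2 genes with the largest change on the CPM scale, among called genes averaging 5 CPM or more, were higher with dTAG. Under 3 kb these were E130012A19Rik (1.25) and Mars2, the mitochondrial methionyl-tRNA synthetase, which went from 8.67 and 11.6 to 19.9 and 27.6 CPM (1.15, adjusted p 2.52e-05). From 3 to 10 kb they were Adamts1 and Dsel (1.35, 15.7 and 20.0 to 42.7 and 51.3 CPM), from 10 to 30 kb Lrriq4 (1.56) and Adhfe1 (1.42), and from 30 to 100 kb Wdr93 and Flrt2, an adhesion protein of FGF signalling (1.52, 25.4 and 34.5 to 81.9 and 92.1 CPM). From 100 to 300 kb they were Spink10 and Slc4a10, a bicarbonate transporter (1.55, 2.66 and 4.09 to 8.96 and 15.1 CPM), and over 300 kb Car10 and Lsamp. With median-ratio scaling a gene that fell was among the 2 largest in 3 of the 6 classes. These were Ooep under 3 kb (-1.14), Spink3 from 3 to 10 kb (-1.40) and Clcn1 from 10 to 30 kb (-1.40), of which Ooep is named outside the rule, after its values were seen.

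Cells of other lines, in tables scaled separately, were set beside these values without a test between tables. The XX cells carry the same transgenes in other single clones (D395A_1F and WT_P2B3) and keep both X chromosomes, and the METTL3 degron clones G4 and H1 (tag at the N terminus by their labels) and C3 and H5 (C terminus) carry no transgene and stand as 4 replicates. In XX cells D395A had 3616 genes higher (28.1%) and 1194 lower (9.27%) of 12878 autosomal genes, and WT had 0 (0%) and 0 (0%), with 300 at an unadjusted p under 0.05. The degron clones had 2192 higher (17.0%) and 797 lower (6.19%) of 12871. Of the genes higher in D395A XiO cells 2256 of 3329 tested were also higher in D395A XX cells, 67.8% of the former and 62.4% of the latter list, and 11 were lower. Of those lower in XiO cells 660 of 1071 were also lower in XX cells, 61.6% and 55.3%. In the degron clones 1413 of 3313 were higher (42.7% and 64.5%) and 375 of 1069 lower (35.1% and 47.1%). In WT XX cells 0 of these genes were called.

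**Figure D5:**
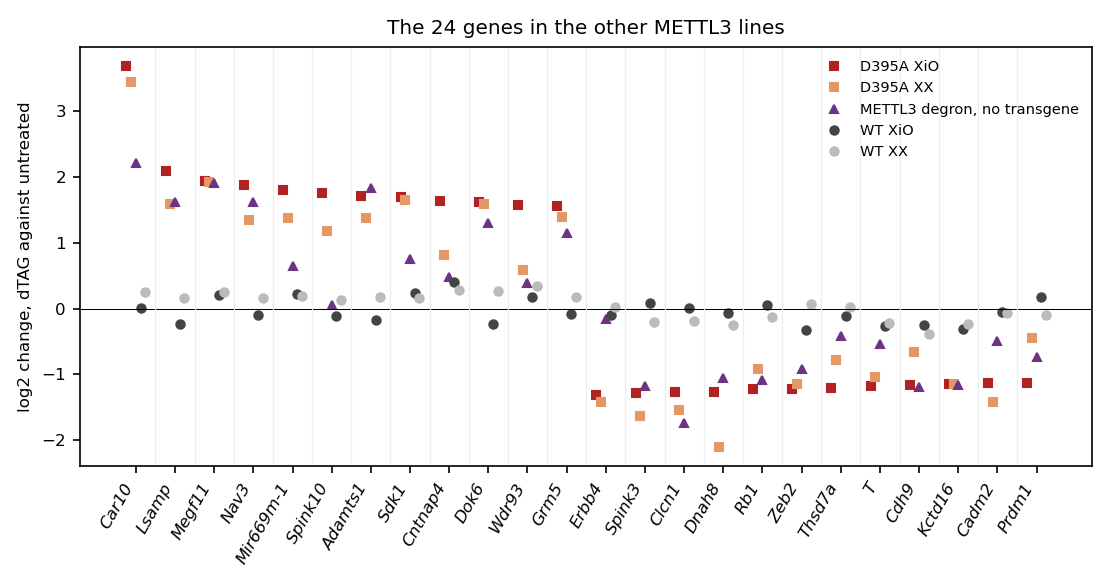
Log2 change with dTAG of the 12 highest and 12 lowest genes of the D395A XiO line in 5 lines; red and orange squares are D395A in XiO and XX cells, purple triangles the METTL3 degron clones without a transgene, and dark and light circles WT in XiO and XX cells. Squares and triangles lie on the same side of 0 in each gene, and circles within 0.41 of 0.

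Car10 rose by 3.45 in D395A XX cells (adjusted p 3.60e-08) and by 2.21 in the degron clones (adjusted p 4.67e-04), and Megf11 by 1.92 in each (adjusted p 1.86e-06 and 0.00277). Rb1 was at -0.92 and -1.08 (adjusted p 4.60e-07 and 5.15e-05), and Wtap at -0.73 and -0.43 (adjusted p 7.27e-07 and 0.00815). Erbb4 was at -1.42 in D395A XX cells (adjusted p 1.71e-07) and at -0.15 in the degron clones (adjusted p 0.426). Spink10 was at 1.17 and 0.05 (adjusted p 1.94e-05 and 0.899). Kcnq1ot1 was at 0.78 and 0.52 (adjusted p 5.43e-06 and 0.0133). Mdm2, with a change of -0.53 in D395A XiO cells, was at -0.15 (adjusted p 0.288) and -0.14 (adjusted p 0.416).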

How the data were processed

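ChrRNA-seq libraries had been processed by the authors: rRNA reads were removed with bowtie2, the rest aligned with STAR to N-masked mm10 keeping unique alignments, and reads counted with featureCounts by strand over whole transcript spans, introns included. The deposited values are CPM (counts scaled to 1000000 reads, by edgeR), with both alleles together. Low values came out as whole reads in 100% of cases (tolerance 0.1 read), which gave a depth of 13936930 to 33069344 reads per library. The depth bounds the precision of low CPM values.

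Values were tested as log2(CPM + 1) with limma 3.58.1 (lmFit and eBayes with trend, R 4.3.3). Genes averaging 1 CPM or more over the 16 libraries of the XiO table entered (13448, of which 13004 of 21630 autosomal genes are described). The fit used all 16 libraries, the line-by-replicate block and dTAG, Dox and combined terms for each line, with 6 residual degrees of freedom. P-values were two-sided and adjusted by Benjamini-Hochberg over all genes tested, with calls at 0.05. The study's reporting summary states that treated and untreated wells of a replicate share their starting culture, and a title with no replicate number was taken as replicate 1. Deviations of same-numbered libraries correlated at 0.723 to 0.885 in the D395A line and 0.868 to 0.917 in the WT line. Replicate number also went with read depth in the 8 libraries, so this correlation cannot show that the wells shared a culture.

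The members and the 35 gene lists were chosen with earlier results of these data known. Named genes were the 12 highest and 12 lowest changes with D395A and the 8 highest and 8 lowest differences from WT, called on both scales with the same sign in both pairs and a mean of at least 5 CPM, up to 6 in each direction with WT, up to 4 called per list (or the 2 most abundant where none was), 2 per length class, and a fixed set around Mettl3. Other genes are named to spell out a count and were chosen after their values were seen. The values of 1 gene that the rule names are not reported here. Gene spans are those of the tables, whose starts count from 0 and were converted to count from 1. The Mettl3 letters were read from RefSeq on GRCm38.p6.

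Alternatives were median-ratio scaling, a pseudocount of 0.5, no filter on low values, no replicate block, the 8 libraries without Dox alone, edgeR 4.0.16 on the recovered reads, and leaving out each replicate. The scripts were checked on simulated data. In the tables used, 4 columns of per-sample values were not used, since they match no sample here. Other expression tables and the tables of X-linked allelic ratios were not used.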

Additional observations from a re-analysis of the deposited data

Results flagged for a closer look

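The response to dTAG differed between the lines by a test of the difference itself (D395A change minus WT change, limma with the replicate block), for 1380 autosomal genes in the higher and 482 in the lower direction. Each line is a single clone, so clone and transgene cannot be told apart.

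Among the named genes the difference in log2 change was 3.68 for Car10, 2.32 for Lsamp, 1.97 for Nav3, 1.88 for Adamts1, 1.87 for Spink10, 1.86 for Dok6, 1.74 for Megf11 and 1.64 for Grm5. It was -1.37 for Spink3, -1.31 for Prdm1, -1.29 for Cnpy1, -1.29 for Rb1, -1.28 for Clcn1, -1.27 for Tarm1, -1.23 for Ano3 and -1.22 for Crebrf. Adjusted p-values over these 16 genes lay between 9.06e-06 for Car10 and 0.0308 for Prdm1.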

How the results depend on the processing

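With median-ratio scaling 2106 genes were higher and 2254 lower with D395A, and the difference was higher for 858 and lower for 979. edgeR on the recovered reads gave 2175 and 2207, and 869 and 972. With the 8 libraries without Dox alone the difference was called for 653 and 210 genes, and without a filter on low values 317 were lower. With no replicate block D395A had 46 higher and 8 lower, and the difference 0 and 0 (612 at an unadjusted p under 0.05; limma); 54 of the 4504 D395A calls remained, 13 of 134 among the named genes. Leaving out each replicate in turn, D395A had 1894 to 3303 higher and 577 to 1041 lower, and the difference 425 to 978 higher and 138 to 317 lower. The lowest counts of the difference came without WT replicate 1. WT had 0 calls under every alternative run, with 17 to 888 genes at an unadjusted p under 0.05.

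Without D395A replicate 1 and without D395A replicate 2 the change was 0.71 and -0.33 for Hist1h1a, 0.21 and -0.26 for Rpl3, 1.19 and -1.32 for Rpph1, -0.21 and 0.28 for Mettl14, 0.077 and -0.28 for Neat1, and 0.022 and -0.33 for Malat1, so the sign turned with the pair that was kept. Mettl14 was also negative with median-ratio scaling (-0.091) and edgeR (-0.11). None of these genes was called. The cause was not tested. Of 134 named genes called with D395A, 121 kept the call and sign with median-ratio scaling and 134 with a pseudocount of 0.5. With no filter 121 kept them, with the 8 libraries 126 and with edgeR 123. The naming rule asked for a call on both scales or for large changes, which favours keeping the call. Of all 4504 D395A calls 3183, 4477, 3861, 3577 and 3246 were kept, in the same order.

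Alternatives for the lines set side by side were chosen after seeing the data. The share of XiO-higher genes also higher in D395A XX cells was 62.4% with median-ratio scaling, 56.9% with no filter and 64.4% with no replicate block, and that of XiO-lower genes also lower 68.3% and 54.7% in the first and second of these. In the degron clones the shares were 30.7%, 36.4% and 48.9% of higher genes and 40.7%, 32.0% and 87.5% of lower genes; the blockless lists hold 45 and 8 genes.

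Each line has 2 pairs of a single clone, and pair 2 holds more reads.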

Other observations

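Protein-coding genes were also grouped by the length of their longest RefSeq exon, a grouping chosen after the data were seen. With Zfp genes left out, the median log2 change with D395A was 0.10 for 1349 genes under 0.5 kb, 0.09 for 2205 of 0.5 to 1 kb, 0.11 for 3279 of 1 to 2 kb, 0.12 for 3394 of 2 to 4 kb, 0.14 for 1517 of 4 to 8 kb and 0.09 for 368 over 8 kb. The share called higher was 16.1% under 0.5 kb, 34.1% at 4 to 8 kb and 30.2% over 8 kb. The share called lower was 4.23%, 10.5% and 13.3% in these classes. Among genes spanning 3 to 10 kb, Zfp genes included, the median was 0.11 under 0.5 kb and 0.41 at 4 to 8 kb. Among genes spanning 30 to 100 kb it was 0.12 and 0.11. In the same exon classes it was 0.09 and 0.20 at spans of 10 to 30 kb, and 0.23 (35 genes) and 0.11 at 100 to 300 kb. No test was made.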
